A study of Mus musculus with 17 samples.

Results

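A group of 10 genes for kinases, a scaffold, adaptors and ligases of the noncanonical NF-kB pathway and of the canonical branch beside it was followed through B cell activation in wild-type and p52 knock-in mice. They are the kinase genes Map3k14, Chuk and Ikbkb, the scaffold gene Ikbkg, the adaptor genes Traf1, Traf2, Traf3 and Traf6, and the ubiquitin ligase genes Birc2 and Birc3. They were chosen by name, each as a row of the deposited table of counts, and are 10 of its 55536 genes. All 10 passed the filter on low counts, which kept 15352 genes.

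RNA was sequenced from B cells of the mouse spleen, sorted by flow cytometry, in 17 libraries. The groups were p52 knock-in (p52ki) naive cells, p52ki activated cells and p52ki germinal centre (GC) cells, and the same 3 stages of wild-type (WT) mice. Each group had 3 libraries except p52ki GC cells, which had 2. The labels describe neither the bases altered in the knock-in, the sorting gates, nor the age of the animals, and p52ki and WT libraries carry separate runs of library numbers, so a batch that follows these cannot be told apart from genotype. Whether replicates are separate animals is not in the labels. The p-values measure only how these libraries vary, with an estimate of the spread shared by all 6 groups. Replicates agreed least in GC cells, with a Spearman correlation over genes of 0.766 in p52ki and 0.792 to 0.975 in WT. In naive cells it was 0.973 to 0.984 and in activated cells 0.935 to 0.976. The SEs of GC comparisons are therefore not the spread of GC libraries alone.

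NF-kB-inducing kinase, the product of Map3k14, is made continuously but is kept scarce in resting B cells, because TRAF3 holds it to a complex of TRAF2 with the ligases of Birc2 and Birc3, which mark it for degradation. When receptors such as CD40 or the BAFF receptor draw in this complex, TRAF3 is degraded, the kinase accumulates and activates IKK-alpha, the product of Chuk, and the precursor encoded by Nfkb2 is cut to p52, the subunit altered in these mice. The canonical branch instead uses IKK-beta (Ikbkb) with the scaffold NEMO (Ikbkg), fed among others by TRAF6. Much of this control acts on protein, which was not measured here.

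The stretches before the start sites of the 3 genes whose levels separated the genotypes, and of Chuk, whose product the kinase of Map3k14 activates, are shown first. They are the 250 bases before each RefSeq start on GRCm38.p6, written 5′ to 3′ on the strand of the gene. Capitals mark a match to an NF-kB consensus of 10 bases in Traf3 and to the ETS core CGGAAGT in Chuk, searched on both strands.
Map3k14, chr11:103267402-103267651, minus strand: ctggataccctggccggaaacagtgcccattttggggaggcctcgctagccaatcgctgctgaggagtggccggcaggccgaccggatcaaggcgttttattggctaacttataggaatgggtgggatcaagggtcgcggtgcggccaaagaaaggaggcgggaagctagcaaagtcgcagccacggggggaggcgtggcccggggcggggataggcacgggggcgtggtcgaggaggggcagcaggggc
Traf3, chr12:111166120-111166369, plus strand: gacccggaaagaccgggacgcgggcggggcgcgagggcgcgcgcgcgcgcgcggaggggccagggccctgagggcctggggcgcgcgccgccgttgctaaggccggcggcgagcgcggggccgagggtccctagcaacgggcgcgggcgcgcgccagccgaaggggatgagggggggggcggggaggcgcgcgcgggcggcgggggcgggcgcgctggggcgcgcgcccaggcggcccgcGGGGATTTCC
Traf2, chr2:25546941-25547190, minus strand: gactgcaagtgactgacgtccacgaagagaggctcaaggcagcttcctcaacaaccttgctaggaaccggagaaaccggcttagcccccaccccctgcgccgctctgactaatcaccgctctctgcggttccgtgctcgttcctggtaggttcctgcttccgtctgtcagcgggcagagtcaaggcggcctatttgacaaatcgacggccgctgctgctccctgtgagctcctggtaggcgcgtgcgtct
Chuk, chr19:44107478-44107727, minus strand: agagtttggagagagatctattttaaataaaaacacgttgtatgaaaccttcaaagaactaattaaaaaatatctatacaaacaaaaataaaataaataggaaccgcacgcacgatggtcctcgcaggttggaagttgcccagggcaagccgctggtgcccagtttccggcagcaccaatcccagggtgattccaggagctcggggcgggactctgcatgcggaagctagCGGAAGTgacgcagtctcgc

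The NF-kB match of Traf3 lies at bases -10 to -1, next to the start, in a window of 85.2% G and C bases. Those of Map3k14 and Traf2 hold 65.2% and 60.8% and neither motif. The ETS match of Chuk lies at bases -20 to -14. RefSeq windows were found for 9 of the 10 genes, 13 windows in all, and not for Ikbkb. An NF-kB match was found in 1 of these 13 windows, that of Traf3, against 7.25% of all 32851 windows of the same length. An ETS match was found in 3 of the 13, windows of Chuk and Ikbkg, against 4.92% of all. A match describes letters and is not a measured binding site.

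The count totals of the libraries were 4067281 to 10036347. At least 1 count was found for 11390 and 13044 genes in the p52ki GC libraries, for 11232 to 19135 in the WT GC libraries, where replicate 3 was the lowest, and for 16745 to 19672 in the other 12. The B cell gene Cd79a was at 4109 to 4977 CPM in p52ki GC cells and 1987 to 3065 CPM in WT GC cells, where CPM are counts on the scale of a shared library size, and it was called higher in p52ki. Ms4a1 was at 3203 to 5076 CPM in p52ki GC cells and 2597 to 4193 CPM in WT GC cells and was not called. A list of 7 GC markers summed to 974 to 1870 CPM in p52ki GC cells and 1709 to 2511 CPM in WT GC cells, against 64.1 to 242 CPM in naive and activated cells of both genotypes. The 5 naive follicular markers summed to 1320 to 1456 CPM in p52ki GC cells and 445 to 675 CPM in WT GC cells, and 5 of 5 were called higher in p52ki. Macrophage and dendritic markers summed to 26.2 to 30.7 CPM in p52ki GC cells and 12.8 to 31.8 CPM in WT GC cells, and T cell markers to 0.82 to 38 CPM in p52ki GC cells and 9.49 to 9.89 CPM in WT GC cells. The 6 erythroid and platelet markers summed to 173 to 179 CPM in p52ki GC cells and 11.4 to 139 CPM in WT GC cells, with 4 of the 6 at 0 in both p52ki libraries. The 6 NK cell markers summed to 5.41 to 32.9 CPM in p52ki GC cells and 0 to 9.35 CPM in WT GC cells. The 5 plasma cell markers summed to 2681 to 2721 CPM in p52ki GC cells and 2657 to 5898 CPM in WT GC cells. Most of this was Jchain, at 2325 to 2437 CPM in p52ki and 2239 to 5268 CPM in WT GC cells. Of the 5, 1 was called higher and 1 lower in p52ki. Plasma cell markers at 0 were 1 in p52ki GC replicate 2 and 2 in replicate 5, with Prdm1 at 0 in both. In p52ki GC replicates 2 and 5, 6 and 8 of the 9 macrophage and dendritic markers were at 0. So were 6 and 7 of the 8 T cell markers and 4 and 5 of the 6 NK cell markers, so these sums rest on few genes. In WT GC replicate 3 the zeros were 7, 7 and 6 in the same order, in replicate 1 they were 0, 1 and 2, and in replicate 4 they were 2, 0 and 0. The part of other cell types and of the different gene detection in the results was not tested. In sorted bulk RNA, fewer cells of a type and less RNA per cell cannot be told apart.

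In naive cells, before any stage change, all 10 genes were read in every library of both genotypes. Per kilobase of the longest coding transcript, Birc3 was the highest, at 108 ± 4.13 CPM per kb in p52ki and 103 ± 3.83 in WT naive cells (SD, n = 3 each). It was followed by Ikbkb at 54.6 ± 8.76 in p52ki and 60.5 ± 5.28 in WT, and by Chuk at 47.2 ± 5.25 in p52ki and 49.7 ± 4.07 in WT. The values of Ikbkb and Chuk overlapped in p52ki and not in WT. Traf3 was the lowest in both genotypes, at 5.2 ± 0.94 CPM per kb in p52ki and 4.96 ± 0.5 in WT. Traf6, Map3k14 and Ikbkg lay just above it, at 5.93 to 8.25 CPM per kb in p52ki and 6.78 to 8.03 in WT, and their spreads overlapped. In GC cells Map3k14 was the lowest of the 10 in p52ki, at 0.8 ± 0.56 CPM per kb (n = 2), and Traf3 the lowest in WT, at 1.81 ± 1.11 (n = 3).

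**Figure D1:**
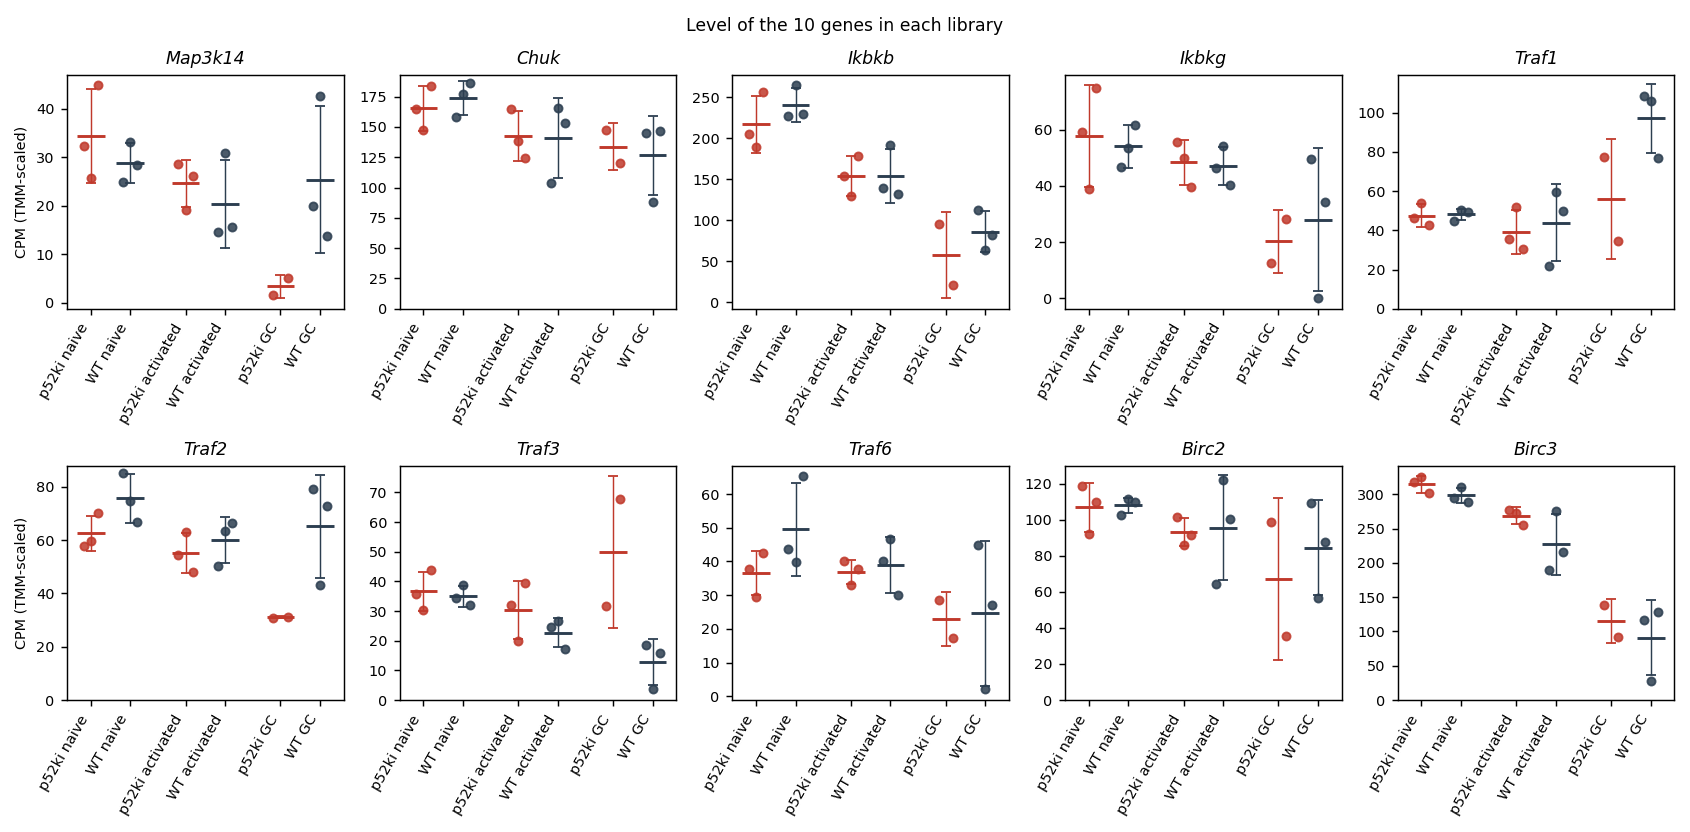
Level of each gene in CPM scaled by TMM (vertical axis) in the 17 libraries, by genotype and stage; points are libraries, long bars means and thin bars SD. In p52ki GC cells Map3k14 and Traf2 lie below every WT GC library and Traf3 above every one, and Birc3 and Ikbkb lie lower in GC cells than in naive cells of both genotypes.

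Between the genotypes, 3 of the genes differed in GC cells. Map3k14 and Traf2 were lower and Traf3 was higher in p52ki GC cells than in WT GC cells, and the other 7 genes were not called. Genes were called where edgeR's quasi-likelihood test, Benjamini-Hochberg adjusted across the whole table, gave a p below 0.05. That is 3 of 10 genes called, 1 higher and 2 lower, where 16% of all genes tested were called. The same 3 were without overlap between the genotypes, against 24.8% of all genes. The median log2 difference of the 10 genes was -0.40, beside -0.32 over all genes.

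Map3k14 (ENSMUSG00000020941, chromosome 11, 103219762 to 103267472 on GRCm38) had 1.7 and 5.09 CPM in p52ki GC replicates 2 and 5, against 19.9, 42.6 and 13.7 CPM in WT GC replicates 1, 3 and 4. Both p52ki libraries were below every WT library, and below every naive and activated library of either genotype. The p52ki values rest on 7 and 31 counts, the WT values on 155, 209 and 126. The log2 difference was -2.87 (SE 0.631, adjusted p = 0.00905, quasi-likelihood test of edgeR). Leaving out any 1 GC library gave -3.89 to -2.15, with adjusted p of 0.00285 to 0.0421 by the same test. The gene overlaps 1700028N14Rik on the same strand by 135 bases, which had 179 counts over all libraries against 3370 for Map3k14.

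Traf3 (ENSMUSG00000021277, chromosome 12, 111166370 to 111267153), which encodes the adaptor that holds the kinase for degradation, went the other way. It had 31.7 and 67.9 CPM in p52ki GC replicates 2 and 5, against 18.7, 3.87 and 15.8 CPM in WT GC replicates 1, 3 and 4. Both p52ki libraries were above every WT GC library, with replicate 5 the highest of all 17 libraries. The log2 difference was 1.95 (SE 0.532, adjusted p = 0.0237, quasi-likelihood test of edgeR). Without p52ki GC replicate 5 it was 1.28 and was not called (adjusted p = 0.117), and without WT GC replicate 3, which had 19 counts, it was 1.65 (adjusted p = 0.0074), in both cases by edgeR's test.

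Traf2 (ENSMUSG00000026942, chromosome 2, 25517982 to 25546940), which encodes the adaptor that joins the ligases to TRAF3, had 30.8 and 31.3 CPM in the p52ki GC replicates, against 79.4, 43.4 and 72.7 CPM in the WT GC replicates. The p52ki libraries were nearly alike and below all WT libraries, of which replicate 3 was the nearest. The log2 difference was -1.07 (SE 0.297, adjusted p = 0.0254, quasi-likelihood test of edgeR). It missed the threshold without WT GC replicate 1 (-0.91, adjusted p = 0.0739), without WT GC replicate 4 (-0.99, adjusted p = 0.0632) and without p52ki GC replicate 2 (-1.07, adjusted p = 0.0665).

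The 3 calls were not made by every fit. A fit of the GC libraries alone by edgeR and limma voom with sample quality weights each called 0 of the 10 genes, with 0 and 15 of all genes called, while DESeq2 called the 3. Log2 differences of Map3k14, Traf3 and Traf2 in that order were -2.85, 2.08 and -0.97 with the GC libraries alone and -2.08, 1.72 and -1.26 with limma voom. With WT GC replicate 3 as the sole WT GC library, its variation taken to be that of the other groups, log2 differences were -3.60 for Map3k14, 3.69 for Traf3 and -0.47 for Traf2, the last no longer called (adjusted p = 0.287 by edgeR's test).

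The ratio of counts between the genes needs no scaling between libraries. The log2 ratio of Map3k14 to Traf3 was -4.13 and -3.72 in the p52ki GC replicates and 0.09, 3.43 and -0.20 in the WT GC replicates. In naive and activated cells it was -0.59 to 0.04 in p52ki and -0.75 to 0.22 in WT. The p52ki GC libraries thus stood below the other 15, and WT GC replicate 3 above them. The log2 ratio of Traf3 to Traf2 was 0.04 and 1.11 in the p52ki GC replicates against -2.08, -3.45 and -2.20 in the WT GC replicates. In both ratios 1 gene lay wholly higher and the other wholly lower in p52ki than in WT GC cells. The GC groups therefore had to separate in both ratios, which give the size of the gap and no further test.

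**Figure D2:**
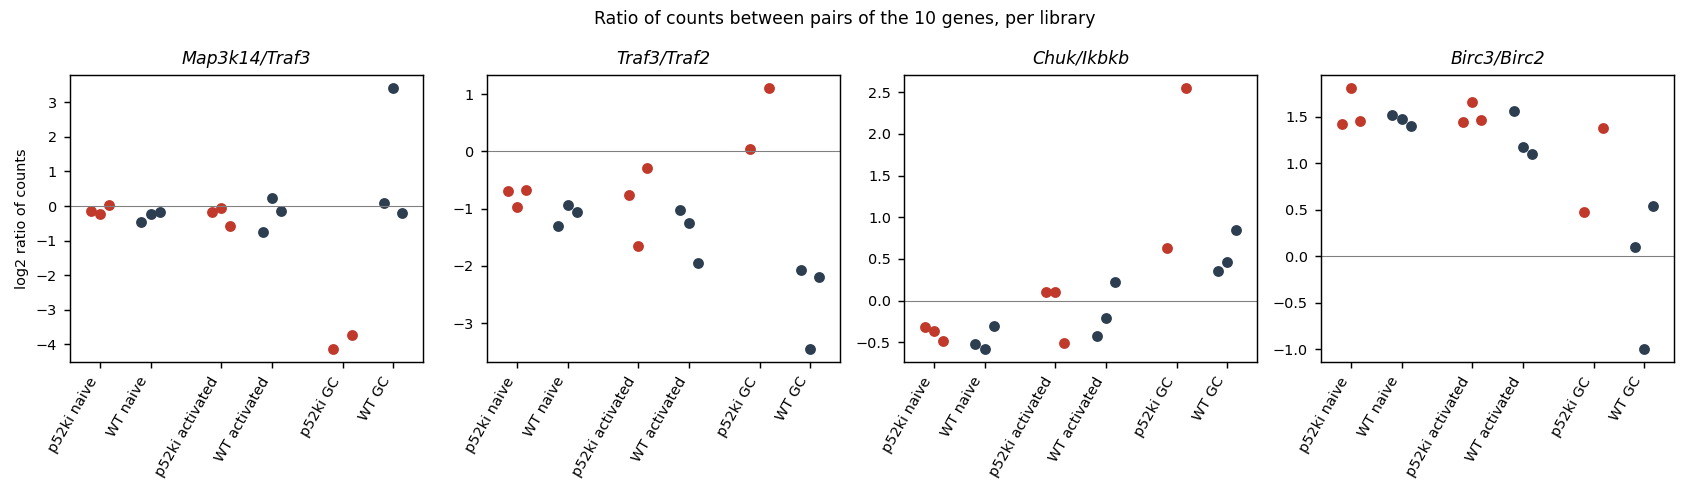
Log2 ratio of counts (vertical axis) for 4 pairs of the genes in each library, by genotype and stage. The Map3k14 to Traf3 ratio is near 0 in naive and activated cells and at -4.13 and -3.72 in p52ki GC cells, and the Chuk to Ikbkb ratio is above 0 in all 5 GC libraries.

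Of the other kinase and scaffold genes, Chuk (ENSMUSG00000025199, chromosome 19, 44073335 to 44107480) had 147 and 120 CPM in p52ki GC cells and 145, 88.4 and 146 CPM in WT GC cells. Its groups overlapped, and the interval of its log2 difference, -0.48 to 0.63, was the narrowest of the 10. Ikbkb (ENSMUSG00000031537, chromosome 8, 22659212 to 22706589) had 94.7 and 20.3 CPM in p52ki GC cells and 113, 63.9 and 81.3 CPM in WT GC cells. The p52ki libraries lay on either side of WT GC replicate 3, and the log2 difference was -0.59 (SE 0.443, adjusted p = 0.378, quasi-likelihood test of edgeR). It was 0.12 without p52ki GC replicate 5 and -2.09 without p52ki GC replicate 2. Ikbkg (ENSMUSG00000004221, chromosome X, 74393290 to 74453854) had 12.4 and 28.2 CPM in p52ki GC cells and 49.8, 0 and 34.2 CPM in WT GC cells. WT GC replicate 3 had no count of it, which allows up to 0.611 CPM for counting error alone, and the interval ran from -2.59 to 1.66. Ikbkg shares 418 bases with G6pdx on the opposite strand, so without a stated strand setting their reads cannot be told apart there.

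Traf1 (ENSMUSG00000026875, chromosome 2, 34941750 to 34961772), an adaptor without a ligase domain and itself a known NF-kB target, had 77.5 and 34.4 CPM in p52ki GC cells and 109, 106 and 76.8 CPM in WT GC cells. The groups overlapped narrowly and the log2 difference was -0.80 (SE 0.422, adjusted p = 0.205, quasi-likelihood test of edgeR). Traf6 (ENSMUSG00000027164, chromosome 2, 101678429 to 101701669) had 28.6 and 17.2 CPM in p52ki GC cells and 44.9, 2.04 and 27 CPM in WT GC cells, where replicate 3 was far below the others. The groups overlapped, and its interval ran from -1.63 to 1.41.

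The ligase genes Birc2 (ENSMUSG00000057367, chromosome 9, 7818227 to 7837064) and Birc3 (ENSMUSG00000032000, chromosome 9, 7848699 to 7873186) are neighbours and similar in sequence, and reads they share may be split between them. Birc2 had 99.1 and 35.4 CPM in p52ki GC cells and 109, 56.6 and 87.9 CPM in WT GC cells. Birc3 had 138 and 92.4 CPM in p52ki GC cells and 117, 28.3 and 128 CPM in WT GC cells. Both pairs of groups overlapped, with log2 differences of -0.34 (interval -1.15 to 0.48) and 0.33 (interval -0.54 to 1.21).

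**Figure D3:**
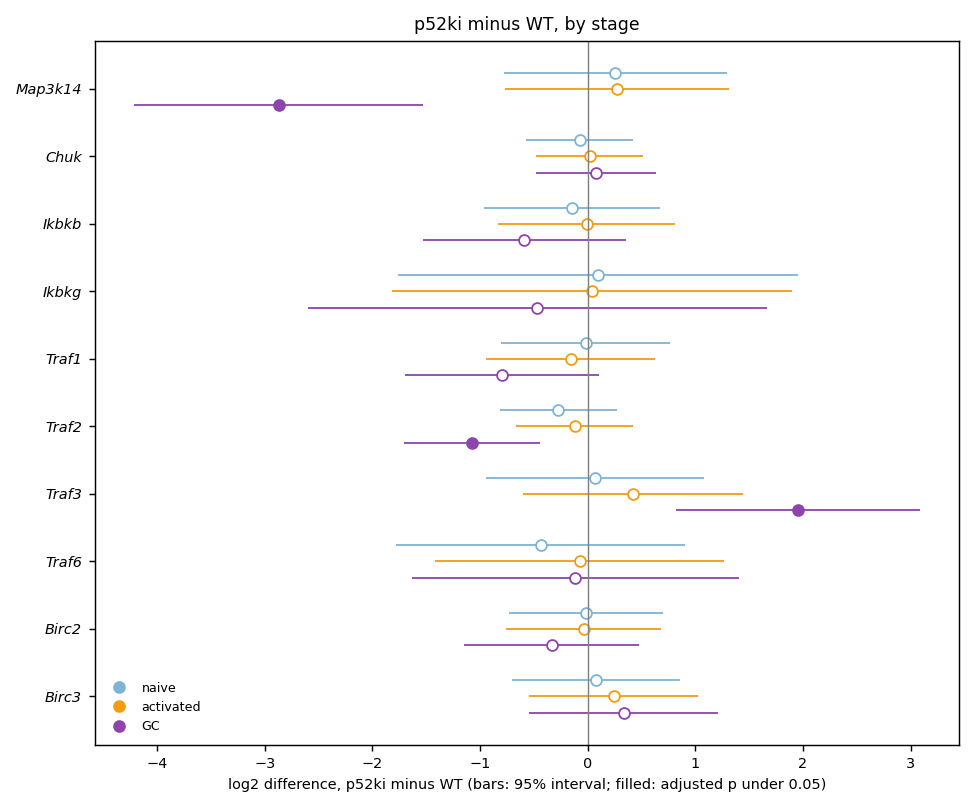
Log2 difference p52ki minus WT (horizontal axis) of each gene in naive, activated and GC cells, with 95% intervals; filled points have an adjusted p under 0.05. All naive and activated points lie between -0.44 and 0.42, and Map3k14, Traf2 and Traf3 are filled in GC cells.

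In naive and activated cells none of the 10 genes was called between genotypes. In naive cells 0 of 10 genes were called, where 0% of all genes were, and 0 were without overlap, against 10.7%. In activated cells 0 of 10 were called, where 0.013% of all genes were, and 0 were without overlap, against 6.1%. Unadjusted p was under 0.05 for 0 of 10 in each comparison with edgeR, and DESeq2 and limma voom also called 0. Log2 differences ran from -0.44 (Traf6) to 0.26 (Map3k14) among naive cells, and from -0.16 (Traf1) to 0.42 (Traf3) once activated. The widest 95% interval was that of Ikbkg, -1.76 to 1.95 in naive and -1.82 to 1.90 in activated cells, and the narrowest that of Chuk, -0.57 to 0.42 in naive and -0.48 to 0.51 in activated cells.

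Map3k14 had 32.4, 25.8 and 44.9 CPM in p52ki naive replicates 2, 3 and 5 and 25, 33.1 and 28.4 CPM in WT naive replicates 1, 3 and 4. In activated cells it had 28.6, 19.1 and 26.1 CPM in p52ki and 14.5, 30.9 and 15.6 CPM in WT. Values of the genotypes were interleaved at both stages. Traf3 had 35.8, 30.5 and 43.7 CPM in p52ki naive cells and 34.3, 38.8 and 31.9 CPM in WT naive cells. In activated cells Traf3 had 32.1, 19.9 and 39.3 CPM in p52ki and 24.5, 26.5 and 17.2 CPM in WT, again with overlap. Traf2 had 57.9, 59.8 and 70.1 CPM in p52ki naive cells and 85.2, 74.8 and 67 CPM in WT naive cells, with p52ki replicate 5 inside the WT range.

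The stage changes were then followed within each genotype. Activated against naive cells called 0 of 10 genes in p52ki, where 0.117% of all genes were called, and 0 of 10 in WT, where 0.319% were. All 10 log2 differences were negative in WT, from -0.64 to -0.13, and 9 of 10 in p52ki, from -0.50 to 0.01. Ikbkb and Birc3 were lower without overlap in both genotypes, and Traf2 and Traf3 in WT. These are 2 of 10 in p52ki, against 18.9% of all genes, and 4 of 10 in WT, against 18.8%. Limma voom with sample quality weights called 3 in WT, Ikbkb (-0.77), Traf3 (-0.87) and Birc3 (-0.43), where it called 1624 of the 15352 genes, and unadjusted p was under 0.05 for 0 of 10 by edgeR.

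GC cells differed more from naive cells. In p52ki, 4 of 10 genes were called and all were lower, where 29.1% of all genes were called and 20.4% were lower. In WT, 2 of 10 were called and both were lower, where 15.9% were called and 7.47% were lower. Without overlap were 6 of 10 in p52ki, against 57.3% of all genes, and 5 of 10 in WT, against 41.6%. The median log2 difference of the 10 genes was -0.84 in p52ki, beside -0.42 over all genes, and -0.70 in WT, beside -0.16. The comparisons of GC cells with naive and with activated cells share the GC libraries, and the genotype comparison in GC cells uses them too.

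Birc3, whose product is a ligase of the degradation complex and which is also a known NF-kB target, fell in both genotypes. It had 318, 325 and 301 CPM in p52ki naive cells, 278, 273 and 255 CPM in p52ki activated cells, and 138 and 92.4 CPM in p52ki GC cells. In WT it had 295, 311 and 289 CPM in naive, 190, 276 and 216 CPM in activated and 117, 28.3 and 128 CPM in GC cells. In each genotype every GC library was below every naive and activated library. GC minus naive was -1.45 in p52ki (SE 0.433, adjusted p = 0.022) and -1.71 in WT (SE 0.378, adjusted p = 0.00601) with edgeR's test. In p52ki the call was lost in 1 of 5 fits without 1 library, with adjusted p of up to 0.104 by edgeR's test. Birc2 had 107 ± 13.5, 93.2 ± 7.97 and 67.3 ± 45 CPM in p52ki naive, activated and GC cells (SD, n = 3, 3 and 2), and was not called. In WT Birc2 had 108 ± 4.43, 95.6 ± 29.2 and 84.6 ± 26.5 CPM at the same stages (n = 3 each) and was not called either. The log2 ratio of Birc3 to Birc2 was 0.48 and 1.38 in p52ki GC cells against 1.42 to 1.82 in p52ki naive cells, and -0.997 to 0.54 in WT GC cells against 1.40 to 1.52 in WT naive cells.

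Ikbkb fell in both genotypes too. It had 206, 190 and 256 CPM in p52ki naive cells, 154, 129 and 178 CPM in p52ki activated cells, and 94.7 and 20.3 CPM in p52ki GC cells. In WT it had 227, 265 and 229 CPM in naive, 139, 192 and 132 CPM in activated and 113, 63.9 and 81.3 CPM in GC cells. The 3 stages were separate in each genotype, naive highest and GC lowest. GC minus naive was -1.92 in p52ki (SE 0.466, adjusted p = 0.00789) and -1.48 in WT (SE 0.394, adjusted p = 0.0184) with edgeR's test. In WT the call was lost in 3 of 6 fits without 1 library, with adjusted p of up to 0.0626 by the same test. In p52ki such fits gave -3.43 to -1.22. Chuk, its partner kinase gene, had 165 ± 18.4, 143 ± 20.6 and 134 ± 19.4 CPM in p52ki naive, activated and GC cells, and 174 ± 14.3, 141 ± 32.9 and 126 ± 33 CPM in WT. Chuk was called in neither genotype, and the log2 ratio of Chuk to Ikbkb was 0.64 and 2.55 in p52ki GC cells and 0.36 to 0.85 in WT GC cells, against -0.48 to -0.32 in p52ki naive cells and -0.58 to -0.30 in WT naive cells.

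Map3k14 and Traf2 fell in p52ki GC cells. GC minus naive was -3.31 for Map3k14 (SE 0.644, adjusted p = 0.00227) and -1.01 for Traf2 (SE 0.296, adjusted p = 0.0198) in p52ki with edgeR's test. In WT the same differences were -0.19 (interval -1.23 to 0.85) and -0.21 (interval -0.76 to 0.33), and neither was called. Traf2 in p52ki lost its call in 2 of 5 fits without 1 library, with adjusted p of up to 0.0615 by edgeR's test.

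Traf3 and Traf1 came close to the threshold in WT. Traf3 GC minus naive was 0.44 in p52ki (interval -0.68 to 1.57) and -1.44 in WT (interval -2.49 to -0.40, adjusted p = 0.0578, quasi-likelihood test of edgeR). All 3 WT GC libraries were below all WT naive libraries in Traf3. Traf1 had 46.1, 54 and 42.5 CPM in p52ki naive, 35.6, 51.9 and 30.5 CPM in p52ki activated, and 77.5 and 34.4 CPM in p52ki GC cells. In WT it had 44.7, 50.1 and 49.5 CPM in naive, 21.8, 59.6 and 49.9 CPM in activated, and 109, 106 and 76.8 CPM in GC cells. The WT GC libraries were above all other WT libraries, while the p52ki GC libraries lay on either side of the p52ki naive ones. GC minus naive for Traf1 was 0.23 in p52ki (interval -0.64 to 1.11) and 1.01 in WT (interval 0.22 to 1.81, adjusted p = 0.0778, quasi-likelihood test of edgeR).

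**Figure D4:**
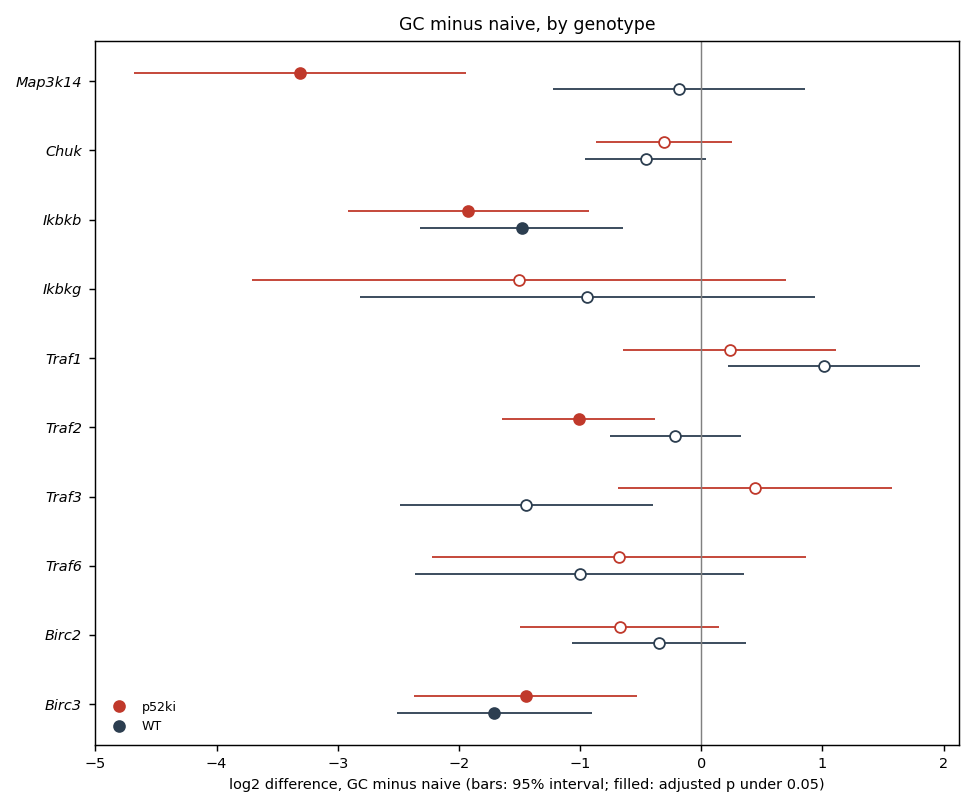
Log2 difference GC minus naive (horizontal axis) of each gene in p52ki and WT cells, with 95% intervals; filled points have an adjusted p under 0.05. Ikbkb and Birc3 are filled in both genotypes, and Map3k14 and Traf2 in p52ki.

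Against activated cells, GC cells of p52ki mice had 4 of 10 genes called, all lower, where 25.6% of all genes were called and 19.3% were lower. GC cells of WT mice had 1 of 10, lower, where 13.6% were called and 7.75% were lower. In p52ki these were Map3k14 (-2.83, SE 0.63), Ikbkb (-1.42, SE 0.456), Birc3 (-1.22, SE 0.429) and Traf2 (-0.83, SE 0.294), with adjusted p of 0.00596, 0.0335, 0.0484 and 0.0498 in that order with edgeR's test. Birc3 and Traf2 lost the call in 5 of 5 fits that left out 1 library, and Ikbkb in 4 of 5. In WT the gene called was Birc3 (-1.31, SE 0.375, adjusted p = 0.0295), and Traf1 was at 1.15 (SE 0.373, adjusted p = 0.0541) by the same test. Birc3 in WT lost its call in 2 of 6 such fits. Without overlap were 6 of 10 genes in p52ki, against 53.3% of all genes, and 3 of 10 in WT, against 31.2%.

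Whether a stage change differed between genotypes was tested directly. Map3k14 fell more from naive to GC cells in p52ki than in WT, with a difference of log2 changes of -3.12 (SE 0.781, adjusted p = 0.0334, quasi-likelihood test of edgeR). Against activated cells the difference was -3.14 (SE 0.782, adjusted p = 0.0315 by the same test). It was 1 of 10 genes called in each, where 5.76% of all genes were called with naive and 5.95% with activated cells as the start. The size was -4.15 to -2.39 and -4.17 to -2.43 without any 1 library, and in 6 of 11 such fits each the adjusted p exceeded 0.05, up to 0.0873 and 0.0779, by edgeR's test. For Traf3 the difference with naive cells as the start was 1.89 (SE 0.715, adjusted p = 0.13) and for Traf2 -0.80 (SE 0.387, adjusted p = 0.236) by the same test. So the opposite directions of Traf3 in the genotypes were not called as a difference. Between activated and naive cells 0 of 10 genes differed in their change, where 0% of all genes did, and 0 of 10 had an unadjusted p under 0.05 by edgeR.

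The other genes of the pathway were counted over whole lists, called or not, that were written with earlier results of these data known. In p52ki against WT GC cells 575 of all 15352 genes were called higher and 1875 lower. There, 0 of 13 tested receptors and ligands were called, of a list of 18 that holds Cd40 and the BAFF receptor Tnfrsf13c. Of 17 canonical activators 1 was higher and 2 were lower. Tab2, which joins TRAF6 to the kinase TAK1, had 135 ± 18.1 CPM in p52ki GC cells (SD, n = 2) against 39.7 ± 8.97 CPM in WT GC cells (n = 3), a log2 difference of 1.76 (SE 0.364, adjusted p = 0.00608, quasi-likelihood test of edgeR). Ripk1, a death-domain kinase of the TNF receptor complex, had 0 to 4.76 CPM in p52ki GC cells against 34.3 to 34.8 CPM in WT GC cells (log2 -3.78, SE 0.842, adjusted p = 0.00974 by the same test). Rbck1, a subunit of the linear ubiquitin ligase, was lower by log2 -1.72 (SE 0.425, adjusted p = 0.0153 by the same test).

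Of 23 other TRAF, IAP and IKK-related genes and brakes, 1 was higher and 6 were lower in p52ki GC cells. Of all 15352 genes 575 were higher and 1875 lower there, 16% in either direction. Traf7 had 14.2 ± 0.82 CPM in p52ki GC cells (SD, n = 2) against 92.6 ± 10.7 CPM in WT GC cells (n = 3), a log2 difference of -2.71 (SE 0.263, adjusted p = 2.23e-05, quasi-likelihood test of edgeR). Traf3ip2, an adaptor of the IL-17 receptor, was at -1.83, Tank, a TRAF-binding scaffold, at 0.97, and Otulin, which cuts linear ubiquitin, at -0.87. Of 11 subunits and inhibitors 2 were higher and 0 lower. Nfkbia, the inhibitor IkB-alpha, had 532 ± 84.8 CPM in p52ki GC cells against 204 ± 56.2 CPM in WT GC cells (log2 1.38, SE 0.238, adjusted p = 0.00192, quasi-likelihood test of edgeR), and Nfkbiz, an atypical nuclear member of the family, was at 1.44 (SE 0.433, adjusted p = 0.0364). The medians of the 4 lists were 0.04, -0.01, -0.27 and 0.83 in that order, beside -0.32 over all genes. In naive and in activated cells 0 genes of the 4 lists were called between genotypes, where 0% and 0.013% of all genes were.

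GC against naive cells called 1333 genes as higher and 3128 as lower of all 15352 in p52ki, and 1298 as higher and 1147 as lower in WT. Subunits and inhibitors had 2 of 11 lower and 0 higher in p52ki and 7 of 11 lower and 0 higher in WT. Receptors and ligands had 3 higher and 3 lower of 13 in p52ki and 0 higher and 2 lower in WT. Of these only Cd40 is named, as an example of the lower ones. It was lower in both, at -0.91 in p52ki (SE 0.262, adjusted p = 0.0181) and -0.85 in WT (SE 0.229, adjusted p = 0.0201) with edgeR's test. Canonical activators had 2 higher and 3 lower of 17 in p52ki and 1 and 1 in WT. The other TRAF, IAP and IKK-related genes and brakes had 1 higher and 5 lower of 23 in p52ki and 2 higher and 1 lower in WT. The lists were counted and not tested as sets.

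Among 9269 genes that averaged 5 CPM or more, those whose log2 level ran most like that of a called gene over the 17 libraries were listed as a description. The most alike were Dhx35 and Acap2 for Map3k14 (Pearson r of 0.978 and 0.964), Alg11 and Hlcs for Traf3 (0.948 and 0.945), and Mars and St7 for Traf2 (0.923 and 0.922). For Ikbkb they were Calhm2 and Tax1bp1 (0.973 and 0.970), and for Birc3 Tlr1 and Zmym2 (0.986 and 0.976). The libraries share stage, genotype and gene detection, so the points are not independent.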

How the data were processed

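RNA of sorted naive, activated and GC B cells was amplified from very small amounts by a SMART-Seq protocol and sequenced as read pairs, per the labels' protocols. The deposited table holds raw counts per gene, which the authors made on GRCm38 with HISAT2 2.1.0, then SAMtools 1.8, then Subread 1.6.2 (featureCounts), per the submitters' processing notes. Strandedness, the handling of multi-mapped reads and any molecular identifiers are not given in the sources used, so floors (3 counts) cover counting error only, while the 95% intervals come from the fit across libraries. All 55536 gene identifiers matched GENCODE mouse release M21, from which coordinates and lengths were taken.

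Genes were kept by filterByExpr over the 6 groups, and 15352 remained. TMM factors scaled the counts, and edgeR 4.0.16 (R 4.3.3; glmQLFit, robust, and glmQLFTest) fitted them, 1 coefficient per group over all 17 libraries, in 12 comparisons. Adjusted p-values are from that test, Benjamini-Hochberg adjusted across the 15352 genes, and CPM are scaled to the same factors. Ratios used a pseudocount of 0.5 counts. Alternatives were RLE scaling, no filter, DESeq2 1.42.0, limma 3.58.1 voom with sample quality weights, removal of immunoglobulin and T cell receptor genes, a fit of the groups compared alone, a replicate block and leaving out libraries. The code was tested on simulated counts that gave all groups the same spread. That checks the code and does not bear on the calls in GC cells.

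Within each genotype, naive and activated samples with the same replicate number deviated together over genes, with correlations of 0.162 to 0.482. Samples with different numbers gave -0.490 to 0.344. These ranges overlap, so the correlations do not settle whether the numbers mark pairs. The main fit used no block, and blocking on the replicate number changed no call among the 10 genes there.

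The 10 genes and the lists were chosen with earlier results of these data known. All 10 genes were examined in every comparison. Of each pathway list up to 4 called genes with the smallest p are named between genotypes in GC cells, and only Cd40 in GC against naive cells. Genes most alike were the 2 with the highest Pearson r of log2(CPM + 1).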

Additional observations from a re-analysis of the deposited data

Results flagged for a closer look

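Map3k14 was picked out because its change with stage differed between genotypes by a test of the difference itself. With activated cells as the start, the change to GC cells was lower in p52ki than in WT by a log2 difference of -3.14 (SE 0.782, adjusted p = 0.0315, quasi-likelihood test of edgeR). With naive cells as the start it was -3.12 (SE 0.781, adjusted p = 0.0334 by the same test). The 2 p52ki GC libraries, with 7 and 31 counts of Map3k14, carry both differences, and they are among the 3 libraries with the fewest detected genes, the other being WT GC replicate 3, which had 209 counts of it. The part of gene detection in the difference was not tested. Single libraries were not tested against the others of their group, since no group had more than 3.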

How the results depend on the processing

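Over the comparisons in which a gene was called, 210 of 210 alternative values kept their direction and 137 kept the call. Of 1470 values not called, 43 became called. The alternatives reuse the same libraries and the called values were picked by the main fit, so a kept direction is no independent support. Between genotypes in GC cells, 3 genes were called, against 0 with limma voom and 0 with the groups compared alone. All genes called there were 2450, against 15 and 0 with the same alternatives and 3924 with DESeq2. Without the filter on low counts Traf2 was not called there (adjusted p = 0.136 by edgeR's test). In p52ki GC against activated cells the count was 4. It was 3 without the filter, 0 with limma voom, 2 with immunoglobulin genes removed, 1 with the groups alone and 1 with the replicate block. In WT it was 1, against 2 with DESeq2, 3 with limma voom, 2 with immunoglobulin genes removed, 0 with the groups alone and 0 with the block. In p52ki GC against naive cells it was 4, against 3 without the filter, 2 with limma voom, 2 with the groups alone and 2 with the block. In WT it was 2, against 3 with RLE scaling, 3 with DESeq2, 5 with limma voom and 1 with the block. With the groups alone 2 were called there, Ikbkb lower and Traf1 higher, in place of Ikbkb and Birc3. For the difference of these changes it was 1, against 0 with limma voom from either start, and 2 with DESeq2 and 0 with the block from naive cells. In WT activated against naive cells it was 0, against 3 with limma voom. The causes were not tested.

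Leaving out 1 library gave 2 to 4 genes between genotypes in GC cells, 1 to 3 (p52ki) and 0 to 1 (WT) in GC against activated, 3 to 4 and 1 to 3 in GC against naive, and 0 to 2 for both differences. With WT GC replicate 3 as the sole WT GC library, they were 5 between genotypes, 4 and 7 for WT GC against activated and naive, and 5 for each difference, where 3915, 6318, 6917, 2877 and 2927 of 16503 genes were called in that order. Ikbkb between genotypes in GC cells turned to 0.12 (adjusted p = 0.796 by edgeR's test) without p52ki GC replicate 5, and was -2.09 and called (adjusted p = 0.0025 by the same test) without p52ki GC replicate 2. Removing immunoglobulin genes moved the median of all genes by 0.12 and 0.15 on the log2 scale in p52ki GC against activated and naive cells.

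In WT GC with activated cells, samples with the same replicate number gave correlations of -0.36, -0.32 and 0.10. With only 2 p52ki GC libraries, deviations from the group mean mirror each other. The correlations therefore do not settle whether the numbers mark pairs in GC cells either, and the block fits remain an alternative. The p52ki GC group has 2 libraries, and Map3k14 and Traf3 rest on as few as 7 and 19 counts in a GC library.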
